A study of Mus musculus with 12 samples.

Results

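RNA sequencing libraries labelled P0-NSC, brain-derived mouse neural progenitor cells, were compared with libraries labelled AST, the mouse astrocytes from which the study started. Both groups had 3 libraries, all from brain of the strain C57BL/6, and neither label names a genotype, transgene, sex or sort. The P0 in the title is the usual notation for the day of birth, but the labels give no age in words, and they do not say how either cell type was isolated or cultured. AST libraries are labelled as astrocytes at 0 days of incubation and as the negative control. P0-NSC libraries are labelled as positive controls. The 2 other groups of the study, P56-NSC (also brain-derived progenitors and positive controls) and A-iSCs (astrocytes after 5 days of incubation in 3D spheres), had 3 libraries each and entered the model to estimate the spread. The genes compared were the 14180 named entries of 55421 in the authors' table with at least 1 FPKM (fragments per kilobase of gene, scaled to library size) in 3 or more of the 6 libraries, against 15747 when all 12 libraries were counted. FPKM is a level per length of gene, so it can be compared between genes within a library.

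Neural stem and progenitor cells of the brain, the radial glia of the embryo and their postnatal descendants, divide to give first neurons and later glia. They carry transcription factors of the Sox family, the Notch effector Hes5 and intermediate filaments such as nestin and vimentin. Around birth the mouse forebrain still produces intermediate progenitors and young neurons, while astrocytes are only beginning to mature. Astrocytes kept in culture on plastic and in serum are known to divide, spread and lay down matrix, and to regain some filament proteins of progenitors.

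Whole reads recovered from the FPKM values numbered 18778071, 24452419 and 24025278 in the P0-NSC libraries, against 17077780, 21543424 and 18862805 in the AST libraries. One AST library, AST-2, stood apart from AST-1 and AST-3, with a gene length score (the correlation of a library's deviations from its group mean with log gene length) of -0.477 against 0.384 and 0.413. No label states whether replicate libraries derive from different animals or cultures, so the p-values below measure only the spread between these libraries. For a gene 1 kb long, each read added 0.0343 to 0.0596 FPKM, and the kit named in the labels does not mark strand, so reads of overlapping genes on opposite strands cannot be told apart. In bulk RNA, fewer cells of a type and less RNA per cell cannot be told apart. Of the 14180 genes, 10598 reached 1 FPKM in all 6 libraries, 1760 reached it in the P0-NSC libraries alone and 801 in the AST libraries alone. Genes of the last 2 kinds entered because they were high in 1 group, so they had to differ, and counts that include them are descriptions. At the threshold itself, the lowest member had a third-highest value of 1.00071 FPKM and the highest gene left out 0.999856 FPKM.

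Most genes differed between P0-NSC and AST libraries. Limma on log2(FPKM + 1), with Benjamini-Hochberg adjustment over all 14180 genes, called 11001 genes at an adjusted p below 0.05 (77.6% of those tested), 5164 of them higher in P0-NSC (36.4%) and 5837 lower (41.2%). The libraries of the groups did not overlap for 5464 genes higher in P0-NSC (38.5%) and 6105 lower (43.1%). At 2-fold or more the calls numbered 2847 higher (20.1%) and 2751 lower (19.4%), and at 8-fold or more 311 higher and 260 lower. The median log2 change over all genes was -0.09. The balance of directions depended on scaling: with FPKM rescaled by total reads, log2 changes moved by a median of 0.24 and the split became 6224 higher and 4626 lower (57.4% of calls higher, against 46.9% with the deposited values). The plot of level and change shows genes called in both directions at low, middle and high levels.

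**Figure D1:**
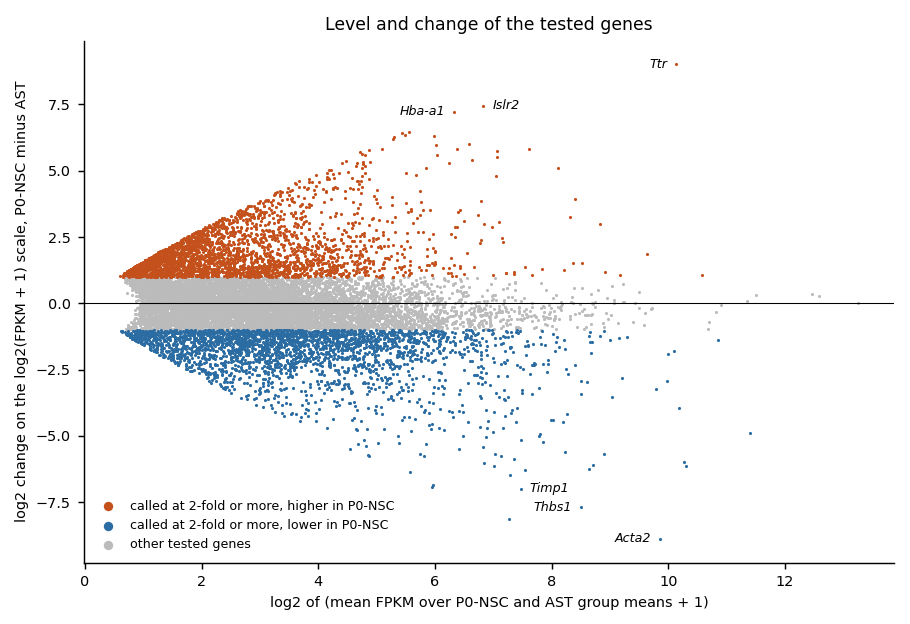
Each point is 1 of the tested genes, with its level (log2 of the mean of the P0-NSC and AST group means in FPKM, plus 1) on the x axis and its log2 change, P0-NSC minus AST, on the y axis. Orange and blue points were called by limma at 2-fold or more, higher and lower in P0-NSC, and some of the genes with the largest changes are named: Ttr, Islr2 and Hba-a1 above, Acta2, Thbs1 and Timp1 below.

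Neuronal genes filled most of the list of largest rises, with Ttr, the thyroxine carrier secreted by choroid plexus, at its head. The leading genes were chosen under a rule that their groups not overlap, so that they stand apart restates the choice. Ttr had 3747, 725 and 2265 FPKM in the P0-NSC libraries, against 2.41, 2.37 and 2.95 FPKM in the AST libraries (log2 change 9.01, SE 0.48, limma adjusted p = 4.7e-09). The groups were far apart, and P0-NSC-2 held much less of the transcript than the other P0-NSC libraries. Islr2, a neuronal membrane protein of axon growth, had 237, 198 and 242 FPKM in P0-NSC, against 0.332, 0.258 and 0.273 FPKM in AST (7.45, SE 0.12, limma adjusted p = 8.3e-13). Cntn2, an adhesion molecule of growing axons, had 100.3, 80.7 and 95.4 FPKM in P0-NSC, against 0.0321, 0.0477 and 0.081 FPKM in AST. For both genes the spread within P0-NSC was small. Neurod2 and Neurod6, basic helix-loop-helix factors of cortical excitatory neurons, averaged 84.4 ± 11.5 and 76.7 ± 11.5 FPKM in P0-NSC (SD, n = 3, as for all means below) and were listed at 0 in all 3 AST libraries. Their log2 changes of 6.41 and 6.27 depend on the pseudocount of 1 and are no bound. Dcx, the microtubule protein of migrating young neurons, had 80.4, 90.5 and 93.2 FPKM in P0-NSC, against 0.108, 0.0819 and 0.0596 FPKM in AST (6.36, SE 0.0936). Mapt (the axonal microtubule protein tau), Calb2 (the calcium buffer calretinin), Cdk5r1 (the neuronal activator of Cdk5) and Cnih2 (an AMPA receptor auxiliary subunit) rose by 6.30, 6.18, 5.96 and 5.83, all as log2 changes of FPKM + 1, the scale of every rise and fall given below. The other leading genes are known from cells other than neurons. Hba-a1, an alpha globin of red blood cells, averaged 159 ± 56.2 FPKM in P0-NSC and 0.0202 ± 0.0351 FPKM in AST, and its reads may be shared with the near-identical Hba-a2. Ptgds, the prostaglandin D synthase made by meninges, choroid plexus and oligodendrocytes, averaged 188 ± 53.4 FPKM in P0-NSC and 1.93 ± 0.517 FPKM in AST.

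Genes of contraction, matrix and wound repair led the falls. Acta2, the actin of smooth muscle and myofibroblasts, had 4, 1.77 and 3.34 FPKM in P0-NSC, against 1742, 2113 and 1689.8 FPKM in AST (log2 change -8.88, SE 0.39, limma adjusted p = 9.3e-10). Thbs1, the matricellular protein thrombospondin-1, had 2.69, 2.18 and 2.55 FPKM in P0-NSC, against 773, 604 and 792 FPKM in AST (-7.70, SE 0.15). For both genes the spread within AST was small beside the gap between the groups. Timp1 (an inhibitor of matrix proteases and a marker of reactive glia), Cnn1 (the smooth muscle calponin), Tnfrsf12a (a receptor of the TNF family) and Gdf15 (a stress-induced cytokine) fell with log2 changes of -6.99, -6.83, -6.47 and -6.36. F3 (tissue factor, the starter of clotting), Hbegf (an EGF receptor ligand) and the calcium-binding proteins S100a6 and S100a11 fell with log2 changes of -6.29, -6.13, -6.23 and -6.12. Crct1, a gene named for a cysteine-rich protein of cornified epithelium, was listed at 0 in all 3 P0-NSC libraries, against 109, 147 and 109.5 FPKM in AST. The plot of the leading genes gives the value of every library.

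**Figure D2:**
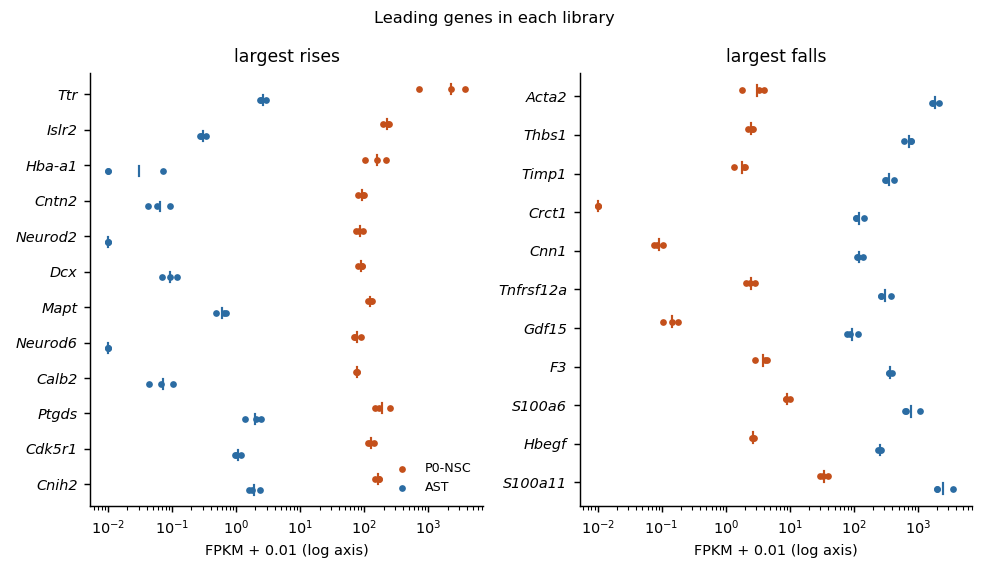
FPKM plus 0.01 on a log axis for genes with the largest rises (left) and falls (right) in P0-NSC against AST. Dots are libraries, P0-NSC in orange above AST in blue, vertical ticks are group means, and dots at the left edge are genes listed at 0. The P0-NSC libraries spread widely for Ttr, 725 to 3747 FPKM.

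The promoters of the leading genes are shown because their transcripts differ most between the groups; each runs from 250 bases before to 50 after a RefSeq transcription start (build GRCm38.p6). Ttr, Thbs1 and Crct1 are named only, so the set has Islr2 (chr9:58204270-58204569, minus strand), Hba-a1 (chr11:32283422-32283721, plus strand) and Cntn2 (chr1:132542891-132543190, minus strand) for the rises. For the falls it has Acta2 (chr19:34255324-34255623, minus strand), Timp1 (chrX:20869916-20870215, plus strand) and Cnn1 (chr9:22099003-22099302, plus strand). Capitals mark exact matches, on either strand, to the 6 motifs searched. Among them were the AP-1 site TGACTCA, the TEAD site GGAATG, the E-box CAGCTG and the CCAAT box CCAAT. The others were the CHR element TTTGAA and the CArG box CCWWWWWWGG, where W is A or T.
Islr2: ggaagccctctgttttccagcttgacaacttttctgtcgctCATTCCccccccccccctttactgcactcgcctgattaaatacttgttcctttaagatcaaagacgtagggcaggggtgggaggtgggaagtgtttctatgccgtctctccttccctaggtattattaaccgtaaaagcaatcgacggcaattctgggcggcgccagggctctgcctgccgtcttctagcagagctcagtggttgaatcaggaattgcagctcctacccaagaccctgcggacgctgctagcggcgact
Hba-a1: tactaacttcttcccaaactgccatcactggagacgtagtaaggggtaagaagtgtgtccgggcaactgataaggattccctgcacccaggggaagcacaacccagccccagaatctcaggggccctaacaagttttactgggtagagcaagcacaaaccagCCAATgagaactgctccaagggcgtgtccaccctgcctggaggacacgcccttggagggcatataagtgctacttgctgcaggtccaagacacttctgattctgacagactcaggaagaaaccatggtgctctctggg
Cntn2: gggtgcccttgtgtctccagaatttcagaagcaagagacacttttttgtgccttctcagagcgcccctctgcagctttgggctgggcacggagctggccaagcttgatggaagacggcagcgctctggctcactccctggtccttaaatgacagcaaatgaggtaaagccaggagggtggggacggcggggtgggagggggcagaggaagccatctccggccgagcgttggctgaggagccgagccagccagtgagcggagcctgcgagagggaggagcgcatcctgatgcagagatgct
Acta2: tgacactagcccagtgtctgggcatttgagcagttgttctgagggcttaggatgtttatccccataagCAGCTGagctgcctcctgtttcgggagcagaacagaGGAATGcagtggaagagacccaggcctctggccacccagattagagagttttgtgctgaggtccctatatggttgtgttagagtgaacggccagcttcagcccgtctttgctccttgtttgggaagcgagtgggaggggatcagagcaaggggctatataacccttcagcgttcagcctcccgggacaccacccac
Timp1: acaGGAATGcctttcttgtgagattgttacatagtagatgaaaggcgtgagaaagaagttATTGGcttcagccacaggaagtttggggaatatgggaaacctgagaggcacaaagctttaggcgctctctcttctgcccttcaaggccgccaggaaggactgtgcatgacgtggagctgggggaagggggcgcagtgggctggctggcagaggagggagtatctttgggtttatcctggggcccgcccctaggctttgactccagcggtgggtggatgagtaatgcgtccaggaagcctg
Cnn1: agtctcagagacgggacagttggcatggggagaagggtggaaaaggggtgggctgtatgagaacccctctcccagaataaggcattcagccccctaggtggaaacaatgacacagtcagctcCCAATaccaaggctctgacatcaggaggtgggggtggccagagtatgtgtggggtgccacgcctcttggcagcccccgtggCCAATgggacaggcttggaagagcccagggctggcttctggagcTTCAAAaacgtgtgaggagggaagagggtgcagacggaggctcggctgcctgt
Islr2 has a TEAD match 209 bases before the start and Hba-a1 a CCAAT box 88 bases before it, while Cntn2 has none of the 6. Acta2 has an E-box match at 182 and a TEAD match at 146 bases before the start. Its stretches ccctatatgg and ccttgtttgg each differ from the CArG letters by a C or G within the run of A and T. An exact search does not mark them, so the lack of capitals there does not show that Acta2 has no such site. Timp1 has a TEAD match at 247 and a CCAAT box at 190 bases before the start, and Cnn1 has CCAAT boxes at 128 and 47 bases before it and a CHR match that begins 3 bases before it.

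The label of the P0-NSC libraries was checked against progenitor markers, and these went both ways. Of 21 tested neural stem cell and radial glia markers, 13 were called higher in P0-NSC and 5 lower, with a median log2 change of 0.67. Hes5, the Notch effector of radial glia, had 15.6, 18.7 and 13.4 FPKM in P0-NSC, against 0.306, 0.687 and 0.395 FPKM in AST (3.53, SE 0.20, limma adjusted p = 7.3e-09). Hopx (a homeodomain protein of outer radial glia), Tfap2c (a factor of basal progenitors) and Ptprz1 (a receptor phosphatase of radial glia) rose by 3.26, 2.88 and 2.55. Pax6, the cortical radial glia factor, was slightly higher, at 4.84, 4.28 and 4.81 FPKM in P0-NSC and 3.55, 3.48 and 3.73 FPKM in AST (0.30, limma adjusted p = 0.0116). The filament genes went the other way. Nes (nestin) had 27.9, 26.7 and 26.1 FPKM in P0-NSC, against 209, 183 and 195 FPKM in AST (-2.82, SE 0.0889), and Vim (vimentin) had 145, 114 and 168 FPKM in P0-NSC, against 1926, 2724 and 1908 FPKM in AST (-3.93, SE 0.22). Both differed without overlap, so these 2 common progenitor markers were higher in AST than in P0-NSC. Sox2, the neural stem cell factor, averaged 84.5 ± 0.268 FPKM in P0-NSC and 135 ± 20.2 FPKM in AST (-0.66), a difference that changed sign under quantile normalization (0.02).

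Most tested genes of neurogenic progenitors were called higher in P0-NSC, in part because of the filter. Of 18 tested intermediate progenitor and proneural genes, 16 were called higher in P0-NSC and 2 lower, but 13 of the 18 had entered through the P0-NSC libraries alone, which fixed their direction. The summed level of the list was 403 to 517 FPKM in P0-NSC and 237 to 337 FPKM in AST. Those 13 genes were each below 1 FPKM in every AST library. Most of the AST sum therefore came from the few other genes of the list, among them the 2 called lower. Eomes, the marker of cortical intermediate progenitors, had 14.4, 10.3 and 17.6 FPKM in P0-NSC, against 0.344, 0.261 and 0.479 FPKM in AST (3.45, SE 0.16, limma adjusted p = 1.5e-09). Neurod1 and Insm1, factors of the step to neuronal differentiation, averaged 66.1 ± 6.98 and 55.4 ± 11.4 FPKM in P0-NSC, against 0.186 ± 0.108 and 1.16 ± 0.258 FPKM in AST. The 2 exceptions, Gadd45g and Btg2, both arrest proliferation in several cell types, and fell with log2 changes of -2.95 and -2.11.

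Most genes of young neurons were higher in P0-NSC. Of 28 immature neuron genes, 25 were called higher in P0-NSC and 1 lower, with 24 rises of 2-fold or more and a median log2 change of 3.12. Tubb3, the neuronal beta tubulin, had 608, 566 and 728 FPKM in P0-NSC, against 36, 51.3 and 34.7 FPKM in AST (3.94, SE 0.20, limma adjusted p = 2.8e-09). Nrep, a regulator of axon regeneration, and Crmp1, a mediator of semaphorin signalling, averaged 385 ± 36.7 and 127 ± 12.9 FPKM in P0-NSC, against 5.84 ± 0.748 and 1.65 ± 0.285 FPKM in AST. These 28 genes took 2.35 ± 0.122% of recovered reads in P0-NSC and 0.34 ± 0.0288% in AST (SD, n = 3 each), an exact two-sided permutation p of 0.1, which is the smallest that 3 against 3 allows. AST was not free of such transcripts. Stmn2, a tubulin-binding protein of growing axons that the rule did not name, was picked after its values were seen, and had 94.7, 104 and 129 FPKM in P0-NSC and 48.4, 66.7 and 46.3 FPKM in AST.

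Identity genes of both main neuron classes of the forebrain were higher in P0-NSC. Of 21 cortical projection neuron factors, 18 were called higher and 2 lower, 8 of the 21 having entered through P0-NSC alone. The rises were led by Tbr1 and Fezf2, factors of deep-layer neurons, and by Zbtb18 (3.52) and Bcl11a (3.39). Tbr1 had 17.1, 16.5 and 21.3 FPKM in P0-NSC, against 0.0109, 0.0539 and 0.00982 FPKM in AST, and Fezf2 had 16.5, 18 and 19.2 FPKM in P0-NSC, against 0.528, 0.712 and 0.778 FPKM in AST. The fallers were Lmo4 (-1.15) and Rorb (-0.69), a LIM-only protein and a layer IV receptor. Of 17 interneuron factors and GABA genes, 14 were called higher and 2 lower, 10 of the 17 having entered through P0-NSC alone. The peptide gene Sst averaged 23.5 ± 3.65 FPKM in P0-NSC and was listed at 0 in AST, and Lhx6, the factor of interneurons from the medial ganglionic eminence, averaged 13 ± 1.48 FPKM in P0-NSC and 0.25 ± 0.0333 FPKM in AST. Six3, a factor of the anterior forebrain and eye, fell to 0.714, 0.246 and 0.647 FPKM in P0-NSC, against 10.7, 11.7 and 11.1 FPKM in AST.

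Genes of neuronal function followed. Of 27 synapse and neurofilament genes, 26 were called higher in P0-NSC and 0 lower, with 1 not called (voom also called 26 higher and 0 lower), and 14 of the 27 entered through P0-NSC alone. Kif5a (an axonal kinesin), Camk2b (a synaptic kinase) and Rbfox3 (the nuclear antigen NeuN) rose by 4.33, 4.30 and 4.18. Among 20 neuronal RNA-binding and splicing factors 14 were called higher and 5 lower, and 6 of the 20 entered through P0-NSC alone. Celf3 and Rbfox1, both neuronal splicing regulators, averaged 33.3 ± 2.28 and 17.1 ± 1.02 FPKM in P0-NSC, against 0.139 ± 0.0604 and 0.0477 ± 0.0308 FPKM in AST, whereas Mbnl2 and Mbnl1, regulators of adult splicing, fell with log2 changes of -1.82 and -1.32. Axon guidance and neuronal adhesion genes were called higher in 22 of 31 cases and lower in 7, against 36.4% and 41.2% of all tested genes. Of these 31, 10 had entered through P0-NSC alone, which fixed their direction. L1cam and Dcc, the adhesion molecule and the netrin receptor of growth cones, rose by 4.24 and 3.68, while Ntn1 (netrin-1, the ligand of Dcc), Slit3 (a repellent) and Efnb2 (an ephrin) fell with log2 changes of -2.19, -1.56 and -1.61.

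Astrocyte markers did not follow the labels as 1 block. Of 26 markers, 14 were called higher in P0-NSC, 8 lower and 4 not called, with a median log2 change of 0.92, and their summed level was 1205 to 1478 FPKM in P0-NSC and 1072 to 1259.5 FPKM in AST. Aqp4, the water channel of astrocyte endfeet, had 4, 8.69 and 4.1 FPKM in P0-NSC, against 32.7, 27.5 and 32.3 FPKM in AST (-2.34, SE 0.27, limma adjusted p = 6.3e-06). Acsbg1 (a fatty acid CoA ligase of astrocytes), Gja1 (connexin 43), Aldh1l1 (a folate enzyme) and S100b (a calcium-binding protein) fell with log2 changes of -1.82, -1.69, -0.97 and -0.97. Other astrocyte markers, transporters among them, were higher in P0-NSC. Slc6a11, a GABA transporter, had 23.2, 32.1 and 24.5 FPKM in P0-NSC, against 0.0354, 0.0586 and 0.0853 FPKM in AST, and Ndrg2 and Slc1a2, the last a glutamate transporter, rose by 3.83 and 3.01. Gfap, the glial filament protein, had 49.3, 77 and 55.6 FPKM in P0-NSC, against 31.1, 27.2 and 31.3 FPKM in AST (0.97, SE 0.25), higher in every P0-NSC library, although AST libraries are the ones labelled as astrocytes. Sox9, a gliogenic factor, averaged 16.5 ± 1.18 FPKM in P0-NSC and 17.5 ± 1.3 FPKM in AST, and its difference was not called (95% interval -0.43 to 0.27 on the log2 scale). Reactive astrocyte genes were called lower in P0-NSC in 20 of 25 cases and higher in 4, but 5 of the 25 had entered through AST alone, which fixed their direction. Cd44, the hyaluronan receptor, had 0.91, 0.999 and 1.31 FPKM in P0-NSC, against 104, 102 and 107 FPKM in AST (-5.67, SE 0.10), while Serping1, a complement inhibitor, rose by 1.61. Lcn2 and C3, well known markers of acute reactivity picked after their values were seen, stayed below 1 FPKM in all 6 libraries and were not tested.

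Markers of vessels, meninges, ependyma, choroid plexus and blood were mostly higher in P0-NSC. Endothelial markers were called higher in 13 of 15 cases, pericyte and fibroblast markers in 11 of 17, ependymal and motile cilia genes in 15 of 15, choroid plexus genes in 9 of 9 and red blood cell genes in 5 of 5. Cldn5, the tight junction claudin of brain vessels, averaged 50.8 ± 2.24 FPKM in P0-NSC and was listed at 0 in AST, and Vtn and Rgs5, both of pericytes, averaged 56.7 ± 5.18 and 38.6 ± 3.83 FPKM in P0-NSC, against 0.0525 ± 0.0253 and 0.311 ± 0.107 FPKM in AST. The summed level of the endothelial list was 125 to 146 FPKM in P0-NSC and 43 to 44.1 FPKM in AST. For the pericyte and fibroblast list the sums were 356 to 484 FPKM in P0-NSC and 91 to 91.6 FPKM in AST, and for the red blood cell list 163 to 338 FPKM in P0-NSC and 0.217 to 0.445 FPKM in AST. Slc2a1, a glucose transporter also found outside vessels, averaged 21.3 ± 4.67 FPKM in P0-NSC and 28.1 ± 0.731 FPKM in AST and made up most of the endothelial sum in AST, and much of the pericyte and fibroblast sum there came from Ogn and Cd248, which were lower in P0-NSC (-1.19 and -0.67). The choroid plexus sum was 783 to 3929 FPKM in P0-NSC, most of it from Ttr, and 10.5 to 12.2 FPKM in AST. Many of these markers reached 1 FPKM in the P0-NSC libraries alone (8 endothelial, 8 pericyte, 9 ependymal, 3 choroid plexus and 5 red blood cell genes). The marker heat map shows the contrast by library, with vascular, choroid plexus and globin genes present in all 3 P0-NSC libraries. These values move with every neuronal group above, and their part in those differences was not tested.

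**Figure D3:**
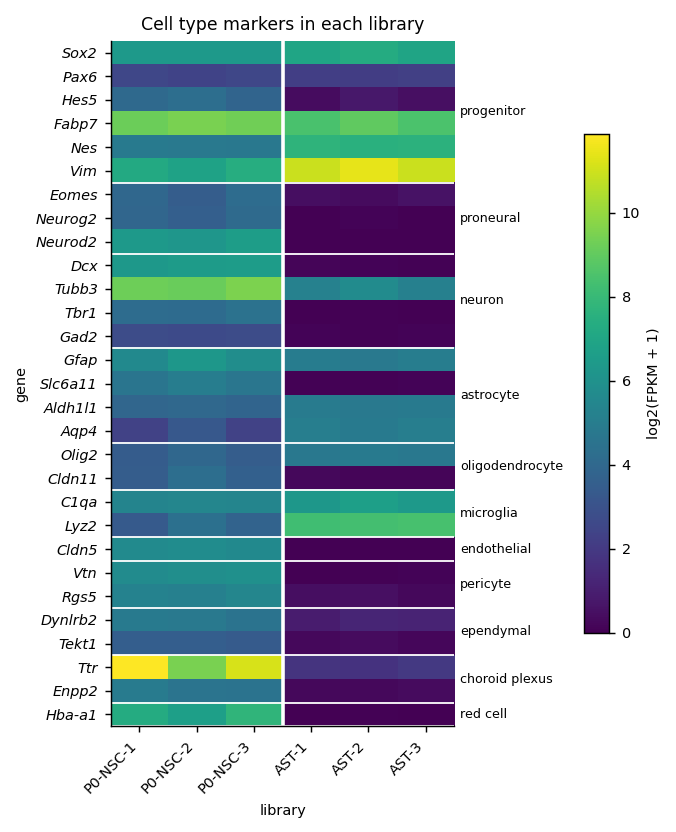
Heat map of log2(FPKM + 1) for cell type markers (rows, grouped by cell type) in the 3 P0-NSC and 3 AST libraries (columns). Neuronal, vascular, choroid plexus and globin genes are brighter in every P0-NSC column than in any AST column, whereas Sox2, Nes, Vim, Olig2, Aqp4, Aldh1l1, C1qa and Lyz2 are brighter in AST.

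Microglia and macrophage markers had a lower summed level in P0-NSC. Of 20 markers 4 were called higher in P0-NSC and 11 lower, but at 2-fold or more 3 and 4, near the 20.1% and 19.4% of all tested genes, with summed levels of 264 to 331 FPKM in P0-NSC and 723 to 847 FPKM in AST. Lyz2, the lysozyme of phagocytes, had 9.13, 20.1 and 12.9 FPKM in P0-NSC, against 301, 316 and 345 FPKM in AST (-4.48, SE 0.29). Complement gene C1qa averaged 41.5 ± 0.855 FPKM in P0-NSC and 87.1 ± 14.1 FPKM in AST, so myeloid transcripts were present in both groups. Mrc1 and Pf4, genes of border-associated macrophages, and P2ry12, a receptor of resting microglia, rose instead, by 2.59, 2.27 and 1.68. Oligodendrocyte lineage markers split, with 7 of 12 called higher and 5 lower (1 and 3 of those with a mean of at least 5 FPKM). Of these 12, 7 had entered through P0-NSC alone. Cldn11, a claudin of myelin and of the arachnoid, and Pdgfra, the receptor of oligodendrocyte precursors and of fibroblasts, rose by 3.60 and 2.77, while Olig2, the lineage factor, had 9.88, 14.5 and 10.3 FPKM in P0-NSC, against 25.9, 27.7 and 26.4 FPKM in AST (-1.15).

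Of the 47 gene lists, the contractile cytoskeleton had the lowest median change. Of 29 actin cytoskeleton and serum response factor (SRF) target genes, 28 were called lower, 27 at 2-fold or more, and 1 higher, with a median log2 change of -3.27. Of the 29, 4 had entered through AST alone and 1 through P0-NSC alone. Besides Acta2 and Cnn1, the calponin Cnn2 and the tropomyosin Tpm2 fell with log2 changes of -5.16 and -5.31, and only Mylk, a myosin light chain kinase, was higher (0.79), a call lost under quantile normalization. These genes took 0.223 ± 0.0117% of reads in P0-NSC and 2.18 ± 0.0695% in AST (exact permutation p = 0.1, the smallest possible). Of the 26 list members with a RefSeq promoter, 6 (23.1%) held a CArG box, the site bound by SRF, against 1.32% of the 10159 tested genes with a promoter and 1.51% of all 20781 promoters. The list was drawn up to hold SRF targets, so this share may restate the choice of its members. Of these holders the 2 with the largest falls, chosen after their values were seen, are shown from RefSeq (GRCm38.p6) with the box in capitals, Cnn2 (chr10:79988350-79988649, plus strand) and Myl9, a myosin light chain (chr2:156775214-156775513, plus strand).
Cnn2: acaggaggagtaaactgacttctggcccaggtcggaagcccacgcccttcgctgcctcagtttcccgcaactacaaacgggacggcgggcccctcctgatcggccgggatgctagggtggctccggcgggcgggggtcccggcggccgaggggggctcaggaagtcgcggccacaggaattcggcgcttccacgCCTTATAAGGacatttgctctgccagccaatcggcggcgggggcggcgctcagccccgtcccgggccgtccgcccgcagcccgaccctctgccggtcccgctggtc
Myl9: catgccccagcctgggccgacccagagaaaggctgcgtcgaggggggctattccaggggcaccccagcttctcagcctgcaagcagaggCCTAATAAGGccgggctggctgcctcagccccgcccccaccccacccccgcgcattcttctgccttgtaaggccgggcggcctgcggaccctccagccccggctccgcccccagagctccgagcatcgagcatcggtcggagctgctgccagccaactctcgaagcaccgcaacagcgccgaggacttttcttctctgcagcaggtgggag
The boxes begin 56 and 161 bases before the start. Myl9 averaged 22.1 ± 4.34 FPKM in P0-NSC and 485 ± 101 FPKM in AST.

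Targets of YAP and TEAD, the effectors of the Hippo pathway that respond to cell spreading, fell with them. Of 20 tested, 17 were called lower in P0-NSC and 2 higher, with a median log2 change of -2.75, and 3 of the 20 had entered through AST alone. Ccn2 had 4.57, 5.03 and 4.09 FPKM in P0-NSC, against 336, 318 and 305 FPKM in AST (-5.85, SE 0.22), and Ccn1 had 23, 11.8 and 18.6 FPKM in P0-NSC, against 935, 966 and 895 FPKM in AST (-5.68). Both are secreted matricellular proteins and their groups were far apart. Tgfb2, the TGF-beta ligand, was higher in P0-NSC (1.21). All 15 S100 and annexin genes were called lower at 2-fold or more, with a median of -2.92, and Anxa1, a membrane-binding annexin, fell with a log2 change of -4.60. Integrins and cadherins were called lower in 11 of 16 cases and higher in 2, led by the laminin receptor chains Itga3 (-4.75) and Itga7 (-3.70), and their common partner Itgb1 averaged 61.2 ± 2.48 FPKM in P0-NSC and 663 ± 109 FPKM in AST.

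Matrix genes were called in both directions, but at 2-fold or more mostly lower. Of 42 extracellular matrix genes 23 were called lower and 13 higher, against 41.2% and 36.4% of all tested genes. At 2-fold or more 20 were called lower and 8 higher, against 19.4% and 20.1% of all tested genes. The list took 0.809 ± 0.0507% of reads in P0-NSC and 2.58 ± 0.395% in AST (exact permutation p = 0.1, the smallest possible). The fallers included Fmod and Col5a2, which organise and form fibrils, and Tinagl1, a basement membrane glycoprotein, with log2 changes of -4.68, -4.08 and -4.99. The risers were led by Reln, the layering signal of Cajal-Retzius cells, at 29.4, 27.8 and 26.4 FPKM in P0-NSC and 0.555, 0.341 and 0.563 FPKM in AST (4.28, SE 0.12). Mfap2, Col3a1 and Eln, of elastic and collagen fibres, rose by 3.77, 3.41 and 2.97, alongside the pericyte and fibroblast markers given above, whose part was not tested. Proteases and their inhibitors were called lower in 21 of 26 cases and higher in 3. Of these 26, 6 had entered through AST alone and 1 through P0-NSC alone, which fixed their direction. The urokinase Plau and its receptor Plaur fell with log2 changes of -3.97 and -4.79, whereas Mmp9 and Ctsk, a gelatinase and a cathepsin of matrix turnover, rose by 2.91 and 1.94. Among 13 mesenchymal transition transcription factors 9 were called lower and 3 higher, with Twist1 at 2.01, 2.05 and 2.25 FPKM in P0-NSC, against 21.5, 30.2 and 23 FPKM in AST, and Zeb2 at 11, 11.5 and 11.4 FPKM in P0-NSC, against 4.08, 3.04 and 4.26 FPKM in AST.

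**Figure D4:**
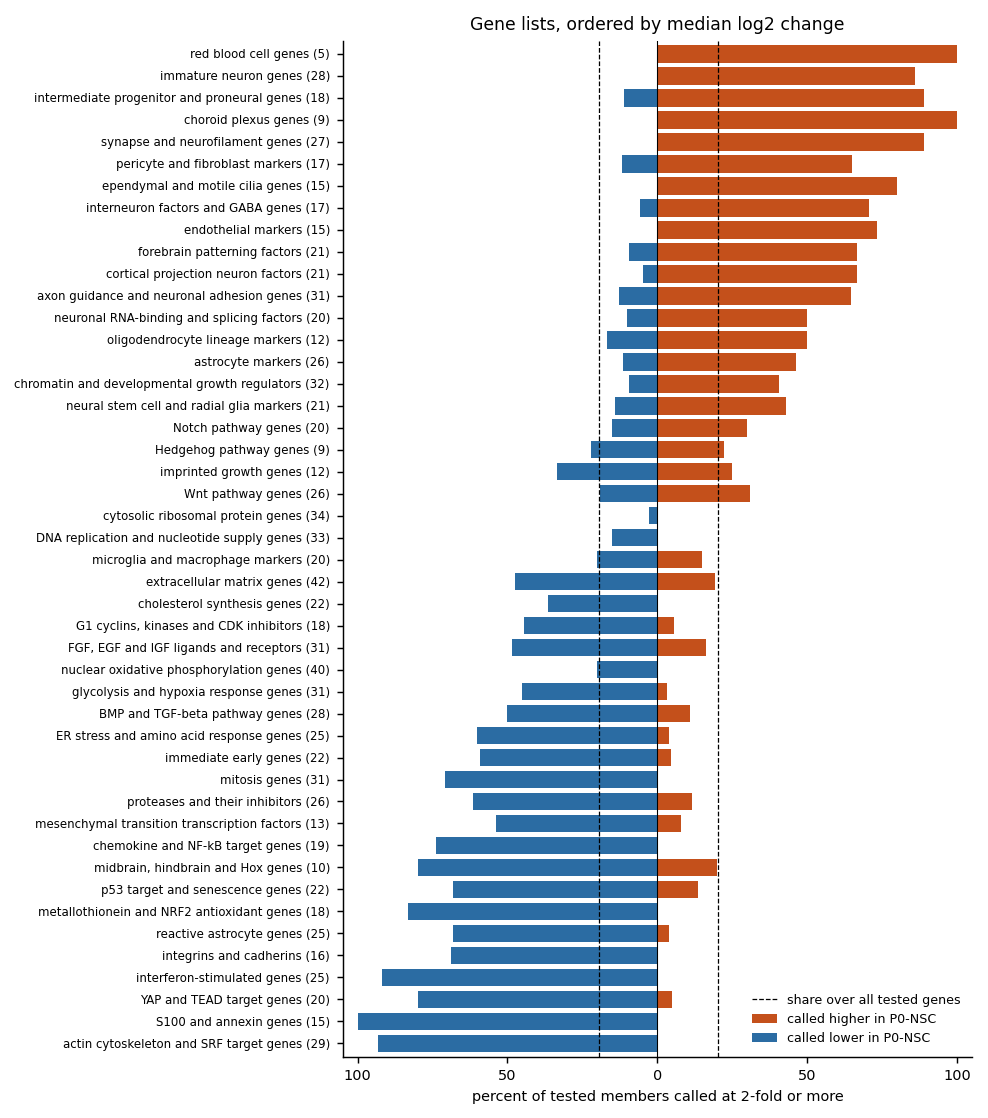
For each gene list (number of tested members in brackets), the percent of tested members that limma called higher in P0-NSC at 2-fold or more (orange, to the right) and lower (blue, to the left), ordered by median log2 change. Dashed lines mark the shares over all tested genes, 20.1% higher and 19.4% lower; red blood cell and immature neuron genes stand at the top and S100, annexin and actin genes at the bottom.

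Cell division genes were lower in P0-NSC although these libraries are labelled as progenitors. All 31 tested mitosis genes were called lower, 22 at 2-fold or more, with a median log2 change of -1.45; with FPKM rescaled by total reads the count was 29. Plk1, the polo kinase of mitotic entry, had 5.53, 4.69 and 4.75 FPKM in P0-NSC, against 33.2, 37.7 and 30.1 FPKM in AST (-2.53, SE 0.13, limma adjusted p = 4.6e-09). Anln, of the contractile ring, and Ube2c, of the anaphase-promoting complex, fell with log2 changes of -2.56 and -2.21. Mki67, the proliferation marker Ki-67, differed less, with 11.1, 8.19 and 11.6 FPKM in P0-NSC and 14.9, 15.7 and 14.6 FPKM in AST (-0.52), and its call was lost when FPKM were rescaled by total reads. Promoters of this list are shown because its members move together and share motifs: of 27 with a RefSeq promoter, 21 (77.8%) held the CHR element TTTGAA and 20 (74.1%) a CCAAT box. Among tested genes the shares were 11.2% and 38.7%, and among all promoters 16.9% and 38.3%. The promoters of the 3 largest fallers, Anln (chr9:22389157-22389456, minus strand), Plk1 (chr7:122159185-122159484, plus strand) and Ube2c (chr2:164769679-164769978, plus strand), are RefSeq's (GRCm38.p6) with matches to either motif in capitals.
Anln: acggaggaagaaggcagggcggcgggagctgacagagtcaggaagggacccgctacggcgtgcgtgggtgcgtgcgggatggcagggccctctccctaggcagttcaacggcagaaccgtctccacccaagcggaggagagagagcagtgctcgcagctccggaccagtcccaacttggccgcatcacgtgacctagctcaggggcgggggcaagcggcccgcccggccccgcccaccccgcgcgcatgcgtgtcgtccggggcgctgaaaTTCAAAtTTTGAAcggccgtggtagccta
Plk1: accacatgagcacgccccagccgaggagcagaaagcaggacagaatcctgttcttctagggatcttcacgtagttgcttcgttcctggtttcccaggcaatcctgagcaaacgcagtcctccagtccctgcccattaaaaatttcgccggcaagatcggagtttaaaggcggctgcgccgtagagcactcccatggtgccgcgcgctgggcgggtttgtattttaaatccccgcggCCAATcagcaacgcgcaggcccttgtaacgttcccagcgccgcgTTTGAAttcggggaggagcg
Ube2c: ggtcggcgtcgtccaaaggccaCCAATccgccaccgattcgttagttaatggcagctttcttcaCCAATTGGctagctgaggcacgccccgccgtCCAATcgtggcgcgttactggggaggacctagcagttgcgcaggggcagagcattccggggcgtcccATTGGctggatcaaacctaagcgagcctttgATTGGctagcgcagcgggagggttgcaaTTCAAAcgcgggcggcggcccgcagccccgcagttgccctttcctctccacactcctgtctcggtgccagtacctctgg
Anln has CHR matches that begin 21 and 28 bases after the start and no CCAAT box, Plk1 has a CCAAT box 14 bases before the start and a CHR match 30 bases after it, and Ube2c has 6 CCAAT boxes, of which 2 overlap, and a CHR match 29 bases before the start. A match is a description of the letters and not of binding.

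DNA replication and nucleotide supply genes fell less. Of 33 tested, 23 were called lower and 3 higher, against 41.2% and 36.4% of all tested genes. Only 5 of the fallers were called at 2-fold or more, a share not above the 19.4% of all tested genes. Rrm2, a ribonucleotide reductase subunit, had 17.6, 15 and 15.9 FPKM in P0-NSC and 128, 125 and 125 FPKM in AST. With FPKM rescaled by total reads the list gave 16 lower and 8 higher. Among 18 G1 cyclins, kinases and CDK inhibitors, 13 were called lower and 2 higher. Ccnd1, the cyclin of G1 entry, had 12, 11.8 and 12.4 FPKM in P0-NSC, against 488, 321 and 474 FPKM in AST (-5.01, SE 0.17). Cdkn2a, the senescence locus of p16 and p19Arf, had 0.336, 0.0586 and 0.279 FPKM in P0-NSC, against 39.2, 65.5 and 41.9 FPKM in AST (-5.32, SE 0.19), and the inhibitors Cdkn1a (p21) and Cdkn2b fell with log2 changes of -4.42 and -4.12. AST held more transcript both of a G1 cyclin and of these inhibitors. Cdkn1c, the imprinted inhibitor p57 of cells leaving the cycle, went the other way, with 23.5, 18 and 26.9 FPKM in P0-NSC, against 0.848, 0.895 and 0.871 FPKM in AST (3.65).

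Genes of stress and of inflammation were mostly lower in P0-NSC. Of 22 p53 target and senescence genes, 17 were called lower and 3 higher, the last led by Trp73, a relative of p53 (2.80). Over all tested genes the shares were 41.2% lower and 36.4% higher. Of the 22, 5 had entered through AST alone and 1 through P0-NSC alone, which fixed their direction. Pmaip1, Fas and Ccng1, targets in apoptosis and arrest, fell with log2 changes of -4.74, -4.69 and -4.72, while Lmnb1, a lamin known to be lost in senescence, had 82, 67 and 78.5 FPKM in P0-NSC, against 28.5, 27.9 and 29.3 FPKM in AST (1.37). All 25 tested interferon-stimulated genes were called lower, 23 at 2-fold or more, 11 of them having entered through AST alone. Isg15, a ubiquitin-like modifier, had 3.42, 1.86 and 2.58 FPKM in P0-NSC, against 136, 229 and 133 FPKM in AST (-5.50, SE 0.38), and Bst2 (tetherin) and Ifit3 fell with log2 changes of -4.91 and -5.28. Of 19 chemokine and NF-kB target genes 18 were called lower and 1, the chemokine Cxcl12, higher (0.44), and 9 of the 19 had entered through AST alone. Csf1, the growth factor of microglia, had 4.38, 4.32 and 3.68 FPKM in P0-NSC, against 277, 275 and 273 FPKM in AST, and Lif, a cytokine of gliogenesis, averaged 0.0964 ± 0.0402 FPKM in P0-NSC and 16.3 ± 3.73 FPKM in AST. Microglia and macrophage markers, given above, also had a lower summed level in P0-NSC, and their part in the interferon and chemokine differences was not tested.

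Antioxidant genes and genes of the ER stress and amino acid response were mostly called lower in P0-NSC too. Metallothionein and NRF2 antioxidant genes were called lower in 17 of 18 cases, with Hmox1, haem oxygenase, at 11.1, 8.57 and 14.3 FPKM in P0-NSC and 404, 526 and 423 FPKM in AST (-5.21, SE 0.23). The exception, Cat (catalase), was called higher by 0.22, a call that 4 of the 6 fits without 1 library did not make. Of 25 ER stress and amino acid response genes, 4 were called higher and 19 lower, the falls led by Mthfd2 (-1.95), Chac1 (-1.95) and the folding enzyme Pdia4 (-1.82). Immediate early genes were called lower in 16 of 22 cases and higher in 3, with Dusp5 and Ier3 at -4.39 and -4.35, and the orphan receptor Nr4a3 at 2.81.

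Members of the Notch, Wnt and Hedgehog pathways were called in both directions, as were all tested genes (36.4% higher and 41.2% lower). In the Notch pathway 10 of 20 genes were called higher and 6 lower (4 and 5 of those with a mean of at least 5 FPKM). Of the 20, 5 had entered through P0-NSC alone, which fixed their direction. The ligands Jag2, Dll4 and Dll1 and the feedback inhibitor Nrarp rose by 2.68, 2.20, 2.09 and 2.31, whereas the ligand Jag1 and the effector Hes1 fell with log2 changes of -1.38 and -2.87. Hes1 had 6.95, 6.31 and 6.86 FPKM in P0-NSC, against 49.4, 70.2 and 48.3 FPKM in AST, the reverse of its relative Hes5. In the Wnt pathway 11 of 26 genes were called higher and 12 lower (13 and 10 with FPKM rescaled by total reads), which is near the shares over all tested genes. Of the 26, 5 had entered through P0-NSC alone and 2 through AST alone. The target Sp5, the feedback inhibitor Nkd1, the secreted Dkk3 and the ligand Wnt7b rose by 3.15, 2.57, 2.38 and 2.36, while the receptors Fzd5 and Fzd8 fell with log2 changes of -3.48 and -1.64. Hedgehog genes were called higher in 4 of 9 cases and lower in 2 (1 and 2 of those with a mean of at least 5 FPKM). Of the 9, 2 had entered through P0-NSC alone and 1 through AST alone. Shh, the ligand, had 0.138, 0.0362 and 0.0638 FPKM in P0-NSC, against 53.6, 61.3 and 51.5 FPKM in AST (-5.71, SE 0.12, limma adjusted p = 4.3e-12), and it was the largest change of the list. Gli1, a transcriptional target of the pathway, had 4.03, 3.25 and 3.21 FPKM in P0-NSC, against 0.0716, 0.0691 and 0 FPKM in AST (2.10). The Shh transcript was near 0 in P0-NSC and the Gli1 transcript near 0 in AST, so each had passed the filter through 1 group alone. Other targets of the pathway were not compared.

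Growth factor genes were mostly lower in P0-NSC. BMP and TGF-beta pathway genes were called lower in 20 of 28 cases and higher in 5. The latent TGF-beta binding protein Ltbp2, the activin chain Inhba, and its antagonist Fst fell with log2 changes of -4.36, -3.31 and -3.17, and the ligand Bmp7 rose by 3.11. Of 31 FGF, EGF and IGF ligands and receptors, 21 were called lower and 5 higher. Of these 31, 5 had entered through AST alone and 2 through P0-NSC alone, which fixed their direction. The IGF-binding protein gene Igfbp2 had 203, 148 and 180.2 FPKM in P0-NSC, against 4801, 6283 and 4591 FPKM in AST (-4.87, SE 0.24), where no gene outside the mitochondrial genome had a higher mean. Its relative Igfbpl1 had 285, 210.3 and 289 FPKM in P0-NSC, against 3.93, 4.05 and 3.74 FPKM in AST (5.73, SE 0.13). Igf2, the fetal growth factor, averaged 2.78 ± 0.274 FPKM in P0-NSC and was listed at 0 in AST.

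Regional identity genes were called in both directions. Of 21 forebrain patterning factors, 16 were called higher in P0-NSC and 4 lower, with a median log2 change of 1.38, and 5 of the 21 had entered through P0-NSC alone. Emx1, the factor of dorsal telencephalon, had 36.3, 28.3 and 34.7 FPKM in P0-NSC, against 0.191, 0.294 and 0.247 FPKM in AST (4.77, SE 0.15, limma adjusted p = 6.7e-11), and Zic1 rose by 2.43. Meis1 fell with a log2 change of -1.13. Among midbrain, hindbrain and Hox genes only 10 of 27 were tested, 8 called lower and 2 higher, but 7 of the 8 had entered through AST alone and both higher ones through P0-NSC alone, so the filter fixed their direction. Irx2, Irx3, Irx1 and Gbx2 fell with log2 changes of -2.13, -2.06, -1.87 and -1.83, Irx2 having 0.0666, 0.0733 and 0.487 FPKM in P0-NSC and 3.73, 5.27 and 3.79 FPKM in AST. These are low levels in both groups, and no Hox gene passed the filter.

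Of the called genes of glycolysis, oxidative phosphorylation and cholesterol synthesis, most were lower in P0-NSC. Of 31 glycolysis and hypoxia response genes 21 were called lower and 7 higher, with Adm (adrenomedullin) and P4ha1 (collagen prolyl hydroxylase) at -3.97 and -3.27, and Eno1, the enolase, at 59.8, 44.5 and 61.5 FPKM in P0-NSC and 292, 312 and 277 FPKM in AST. Gapdh, which has many near-identical pseudogene copies, is uncertain: it had 1.63, 1.4 and 0.984 FPKM in P0-NSC, against 41.3, 2.73 and 54.5 FPKM in AST, where AST-2 stood far below AST-1 and AST-3, and its call was lost in 4 of the 6 fits without 1 library. Nuclear oxidative phosphorylation genes were called lower in 36 of 40 cases and higher in 0, but only 8 at 2-fold or more, a share near the 19.4% of all tested genes, with Uqcrb and Cycs at -1.94 and -1.92. Under quantile normalization that list gave 17 lower and 2 higher. Cytosolic ribosomal protein genes were called lower in 12 of 34 cases and higher in 0, but quantile normalization called 22 higher and 1 lower, so no direction can be given for them. Of 22 cholesterol synthesis genes 15 were called lower and 1, the regulator Srebf2, higher (0.34), with Msmo1 and Hsd17b7 at -2.71 and -2.52 and 6 not called.

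Chromatin and developmental growth regulators were mostly higher in P0-NSC. Of 32 tested, 24 were called higher and 6 lower, 13 of the risers at 2-fold or more, and 7 of the 32 had entered through P0-NSC alone. Actl6b, the neuronal subunit of the BAF complex, had 21.5, 21.1 and 24.8 FPKM in P0-NSC, against 0.0559, 0.0347 and 0.0505 FPKM in AST (4.48, SE 0.0954), and Cbx2 (Polycomb), Chd3 (NuRD) and Ss18l1 (neuronal BAF) rose by 2.73, 2.69 and 2.65. Hmga2, a chromatin protein of fetal stem cells, had 0.103, 0.0862 and 0.0322 FPKM in P0-NSC, against 18.4, 15.6 and 17.5 FPKM in AST (-4.08, SE 0.11), and its relative Hmga1 fell with a log2 change of -2.70. Of 12 imprinted growth genes 5 were called higher and 5 lower, shares near those over all tested genes. H19, the noncoding RNA beside Igf2, averaged 53.4 ± 10.1 FPKM in P0-NSC and 4.88 ± 0.476 FPKM in AST, and Peg10 and Mest fell with log2 changes of -2.29 and -1.79.

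Pairs of related genes were compared within each library, where scaling cancels. The ratios are of FPKM, which is per length. The neuronal transgelin Tagln3 stood at 359, 188 and 278 times its smooth muscle relative Tagln in P0-NSC, against 0.182, 0.122 and 0.252 times in AST. Tubb3 stood at 104, 99.95 and 118 times the widely expressed Tubb6 in P0-NSC, against 0.168, 0.199 and 0.168 times in AST. For both pairs the dominant member differed between the groups in every library. The same held for Ccnd2 over Ccnd1 (2.30, 2.11 and 2.37 in P0-NSC, 0.412, 0.537 and 0.420 in AST), although both cyclins were lower in P0-NSC. Actl6b over Actl6a was 1.97, 2.21 and 2.44 in P0-NSC, against 0.00426, 0.00255 and 0.00387 in AST, the exchange of BAF subunits known from neuronal differentiation. Ptbp2, the splicing repressor of young neurons, over Ptbp1, that of progenitors and other cells, was 0.613, 0.640 and 0.524 in P0-NSC, against 0.0865, 0.107 and 0.0826 in AST, so Ptbp1 stayed the more abundant in both groups. Among the pairs plotted, the ratio of Fabp7 to Fabp5 alone was lower in P0-NSC (6.54, 7.79 and 5.96) than in AST (12.8, 12.6 and 12.9), as the plot of ratios shows.

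**Figure D5:**
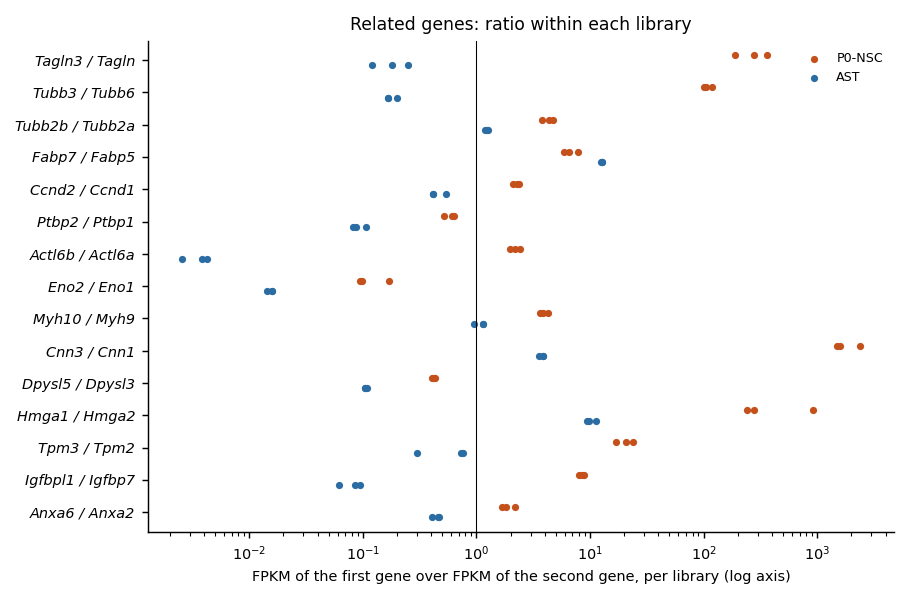
Ratio of FPKM of the first to the second gene of related pairs, on a log axis, with a line at 1. Dots are libraries, P0-NSC in orange and AST in blue. For Tagln3 over Tagln, Tubb3 over Tubb6 and Igfbpl1 over Igfbp7 the P0-NSC and AST libraries lie on opposite sides of 1.

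The most abundant transcripts of the groups were compared too. Mitochondrial genes such as mt-Co1 headed both groups and were not called (mt-Co1 95% interval -0.81 to 0.81 on the log2 scale). In P0-NSC the 10 genes of highest mean FPKM also held Tuba1a and Tubb2b, tubulins of young neurons, at 2084 ± 216 and 1250.2 ± 74.4 FPKM, against 989 ± 56.5 and 346 ± 28.5 FPKM in AST. In AST they held Tmsb4x, an actin-binding peptide, and Lgals1, galectin-1, for which P0-NSC averaged 1015 ± 142 and 37 ± 3.88 FPKM and AST 2662 ± 656 and 2430.3 ± 615 FPKM. Eef1a1, the translation elongation factor, was in both sets, with 2542, 2375 and 3164 FPKM in P0-NSC and 2545, 2389 and 2674 FPKM in AST, and was not called. Of genes above 10 FPKM in both groups, those with the narrowest intervals around an uncalled difference were Ccndbp1, Exoc3, Nelfb, Arfgap1, Mta2 and Gps1. Nelfb, a subunit of the negative elongation factor, had 16.8, 17.4 and 16.3 FPKM in P0-NSC and 16.8, 16.6 and 16.2 FPKM in AST (95% interval -0.14 to 0.18), whereas Ccndbp1, Exoc3, Nelfb and Mta2 were called higher when FPKM were rescaled by total reads or quantile normalized.

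P0-NSC libraries were also set beside P56-NSC libraries in the same fit. At 2-fold or more limma called 13.7% of the tested genes higher in P0-NSC than in P56-NSC and 13.7% lower, and 15.9% higher and 12.6% lower in P0-NSC than in A-iSCs. Dcx averaged 88.1 ± 6.73 FPKM in P0-NSC and 3.34 ± 0.398 FPKM in P56-NSC (4.36, limma adjusted p = 9.8e-12), and Tubb3 averaged 634 ± 84.2 FPKM in P0-NSC and 76.8 ± 7.64 FPKM in P56-NSC (3.03). Eomes was higher in P0-NSC than in P56-NSC too (3.34), so these 3 genes were higher in P0-NSC than in AST and than in P56-NSC. Hes5 averaged 15.9 ± 2.66 FPKM in P0-NSC and 19.8 ± 4.39 FPKM in P56-NSC and was not called between them (-0.29, limma adjusted p = 0.203). Mki67 averaged 10.3 ± 1.84 FPKM in P0-NSC and 1.53 ± 0.198 FPKM in P56-NSC (2.15), so P0-NSC stood between P56-NSC and AST. Acta2 averaged 3.04 ± 1.15 FPKM in P0-NSC and 7.74 ± 5.53 FPKM in P56-NSC (-0.98, limma adjusted p = 0.0407), both far below AST. Ttr averaged 2216 ± 843 FPKM in P56-NSC, and was not called between P0-NSC and P56-NSC.

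Promoter motifs were counted over all genes called at 2-fold or more. RefSeq promoters were matched for 1899 of 2847 genes called higher at 2-fold or more and 2054 of 2751 called lower. The AP-1 site was held by 2.90% of promoters of genes higher in P0-NSC, 5.26% of genes lower, 3.30% of all tested genes and 4.85% of all promoters. The CHR element was held by 9.37% of the higher, 13.2% of the lower and 11.2% of all tested genes, and the E-box CAGCTG by 18.2%, 16.3% and 14.7%, with 15.6% of all promoters. For the TEAD site the shares were 12.8%, 14.4% and 11.9%, with 14.1% of all promoters, and for the CCAAT box 36.5%, 39.5% and 38.7%. The CArG box was held by 23 promoters of the higher (1.211%) and 41 of the lower genes (1.996%). Its share was 1.319% among all tested genes and 1.506% among all promoters. The TEAD site was held by 8 of 15 promoters of YAP and TEAD targets (53.3%) and the E-box by 5 of 15 of the proneural list (33.3%). The former list was drawn up to hold targets of TEAD, so its share may restate the choice of its members.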

How the data were processed

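The authors deposited 1 table with a value per gene and library, read here as FPKM from the values, since the header names no unit. Whole reads were recovered from the steps of the deposited FPKM values and used for depth and for alternative scalings, while the authors' scaling between libraries is not stated. The submitters' processing notes name the aligner Bowtie, version 0.12.2, with builds mm8 and mm9, but the gene coordinates in the table are those of GRCm38. The title of the series names retina, whereas its design text and the sample labels, which set the groups here, describe brain cells. Among the deposited gene names, 27 had been turned into dates (19 of them tested), and they were kept as written. Named genes with at least 1 FPKM in 3 or more of the 6 libraries were tested with limma 3.58.1 (R 4.3.3, trend) on log2(FPKM + 1), in 1 fit of all 12 libraries with a mean per group. P-values were adjusted over the 14180 genes by the Benjamini-Hochberg method, and a call needs an adjusted p below 0.05. Members and gene lists were chosen with earlier results of these data known. Genes named are the 12 largest rises and falls with at least 10 FPKM in the higher group and no overlap (predicted genes, clones and pseudogenes passed over), up to 4 called genes a direction from each list, a set of fixed markers, the 10 highest genes per group, the pairs, and 6 uncalled genes with narrow intervals. Some genes that this rule takes are not reported here. Promoters are RefSeq's, taken at the start closest to the deposited 5′ end of the gene, and 10159 of 14178 symbols matched. Pandas 2.3.3 and SciPy 1.17.1 were used for the rest.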

Additional observations from a re-analysis of the deposited data

Results flagged for a closer look

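The 5 markers S100b, Aqp4, Aldh1l1, Olig2 and Pax6 differed from AST one way in P0-NSC and the other way in P56-NSC, with a called difference between P0-NSC and P56-NSC. Both comparisons share the AST libraries. S100b averaged 1.11 ± 0.35 FPKM in P0-NSC, 479.7 ± 12.3 FPKM in P56-NSC and 3.11 ± 0.469 FPKM in AST (SD, n = 3 each), a log2 difference between P0-NSC and P56-NSC of -7.84. Aqp4 averaged 5.6 ± 2.68 FPKM in P0-NSC, 61.8 ± 2.13 FPKM in P56-NSC and 30.8 ± 2.92 FPKM in AST (-3.32). Aldh1l1 averaged 14.2 ± 1.12 FPKM in P0-NSC, 49 ± 7.36 FPKM in P56-NSC and 28.6 ± 1.31 FPKM in AST (-1.71). These astrocyte genes were lower in P0-NSC and higher in P56-NSC than in AST. Olig2 averaged 11.6 ± 2.56 FPKM in P0-NSC, 78.8 ± 3.38 FPKM in P56-NSC and 26.7 ± 0.915 FPKM in AST (-2.68). Pax6 went the opposite way, with 4.64 ± 0.312 FPKM in P0-NSC, 2.76 ± 0.154 FPKM in P56-NSC and 3.59 ± 0.129 FPKM in AST (0.59).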

How the results depend on the processing

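Under 17 alternatives, 311 of 345 named genes kept their direction and side of the threshold, 24 lost a call in at least 1, 5 gained one and 6 changed sign. With FPKM rescaled by total reads the log2 change of Gps1 was 0.19 and that of Islr 0.0078, and under quantile normalization Gps1 had 0.34, Hmgn1 0.055, Islr 0.058, Itga8 -0.12, Sox2 0.019 and mt-Nd4 0.96; the cause was not tested. The count of called genes was 6186 (2299 higher, 3887 lower, 1189 higher at 2-fold or more) with a mean of at least 5 FPKM, where fewer genes are tested, and 8511 were called higher with no filter, where more are tested. Leaving out 1 library gave 10486 to 10772 calls, 4944 to 5073 higher and 5523 to 5699 lower, and at 2-fold or more 2790 to 2857 higher and 2697 to 2825 lower. A replicate block gave 10968 calls; the numbers only name the libraries, since same-numbered libraries correlated at 0.077, -0.082 and -0.098. Of 3192 list counts, 3041 stayed within 1.5 times. The edgeR and DESeq2 alternatives were not run, because the deposited values are not counts. Genes called by limma voom on recovered reads, a set chosen after seeing the data, gave the TEAD site in 12.4% of genes higher in P0-NSC and 13.6% lower, and the CHR element in 9.40% and 13.1%. Values near 1 FPKM rest on few reads in short genes, and with 3 libraries a group the spread is estimated from little.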

Other observations

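Among noncoding genes, those of lncRNA, snoRNA and miRNA were called higher in P0-NSC more often than protein-coding genes. The filter admitted 1760 genes through P0-NSC alone and 801 through AST alone, which fixed their direction. Of the former, 80.6% were called higher at 2-fold or more. How many genes of each kind or factor family below entered that way was not counted, so their shares are descriptions. Of 596 tested lncRNA genes, limma called 211 (35.4%) higher in P0-NSC and 90 (15.1%) lower at 2-fold or more, while for 12437 protein-coding genes the shares were 19.3% and 20.4%. Of 89 tested snoRNA genes 42 were called higher at 2-fold or more, and of 57 miRNA genes 37; such short RNAs are poorly held by this kind of library, and many lie inside other genes. By the transcription factor families annotated in the authors' table, bHLH factors were called higher in P0-NSC at 2-fold or more in 39.0% of 59 cases and lower in 16.9%, against 20.1% and 19.4% of all tested genes. At the same threshold bZIP factors were called higher in 9.76% of 41 cases and lower in 48.8%. C2H2 zinc finger genes were called higher at 2-fold or more in 22.3% of 382 cases, near the share of all tested genes, and lower in 7.33%, and HMG factors were called higher in 29.3% of 41 cases and lower in 2.44%.

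Calls varied with gene length. With tested genes cut by length into 5 bins, the shares called higher at 2-fold or more were 19.8% in the shortest and 24.1% in the longest bin, and the shares called lower were 22.3% and 12.3%. Without AST-2, the library that stood apart in its length score, the shares were 20.3% and 22.9% higher and 19.6% and 13.2% lower, an alternative chosen after seeing the data. The part of gene length in the list results was not tested.

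Of 4 tested sex-linked genes, Kdm5d was called higher in P0-NSC (0.59) and Uty lower (-0.50), with 2 not called, and the call of Uty was lost when FPKM were rescaled by total reads. Xist, of the same list, was not tested and had 0.0195, 0.0402 and 0.0142 FPKM in P0-NSC, against 0.339, 0.401 and 0.252 FPKM in AST.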
